A study of Caenorhabditis elegans with 37 samples.

Results

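The touch neuron programme genes are 10 of the 30631 genes counted in sorted cells of the nematode Caenorhabditis elegans. They were taken by name (mec-2, mec-6, mec-7, mec-12, mec-17, mec-18, unc-86, egl-44, egl-46 and ahr-1) and matched by WormBase identifier, and all 10 passed the filter on low counts. Their levels were measured by bulk RNA sequencing of 37 libraries from untreated worms, made from dissociated cells sorted by fluorescence. There were 2 libraries of PVD, a branched sensory neuron of the body wall. The other single types were the chemosensory neurons ASG (n = 4), AWA (n = 4) and AWB (n = 5), the interneurons AVE (n = 3) and AVG (n = 3), and the motor neurons DD (n = 3) and VD (n = 4). The references were a pan-neuronal sort, named after the marker Rab3 (n = 5), and an all-cell sort that used stains for living and dead cells alone (n = 4). The sources used here do not give strain, stage, sex or the marker transgene of each single type. Levels are in CPM (counts scaled to the library total and its TMM factor), and values after ± are SDs over libraries unless SE is written.

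Touch receptor neurons sense gentle touch through a channel of the DEG/ENaC family and through unusually thick microtubules in their processes. The POU homeodomain factor UNC-86 starts their programme and acts with the LIM homeodomain factor MEC-3 to switch on the genes of the channel and the microtubules. UNC-86 and MEC-3 also act in other mechanosensory neurons, PVD among them, and further factors decide which part of the programme a neuron uses: EGL-44 and EGL-46 hold touch genes off in FLP, a neuron whose branches resemble those of PVD. AHR-1, the aryl hydrocarbon receptor, keeps the touch neuron AVM from taking a PVD-like branched form.

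The mec genes lie on 4 chromosomes in the WBcel235 annotation, and all 10 genes are protein-coding. The microtubule group holds mec-7 (X:7774856-7776689, minus strand), mec-12 (III:3131574-3139234, minus) and mec-17 (IV:7983802-7987183, minus). Another gene of the touch programme is mec-18 (X:4271165-4274216, minus). The channel partners are mec-2 (X:5567754-5590830, plus) and mec-6 (I:6724867-6728330, plus). The regulators are unc-86 (III:8212740-8216336, minus), egl-44 (II:5928802-5940830, plus), egl-46 (V:6679123-6681573, minus) and ahr-1 (I:9522550-9531132, plus). Exons of 5 members overlap genes on the opposite strand, from 10 bases between mec-2 and a non-coding RNA to 221 bases between mec-18 and C52B9.10. The sources used here do not say whether counting used strand, so reads in those stretches cannot be told apart.

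Library totals ran from 251586 to 5415925 counts, and both PVD libraries were shallow, at 763634 (library 62) and 469314 (library 63). The PVD label was checked against 12 marker genes. They summed to 8339 to 15520 CPM in PVD and 1019 to 1115 CPM in pan-neuronal libraries; 9 of them were higher in PVD than in every other type, and degt-1 was at 0. Several libraries stood apart. By mean Spearman correlation over genes, all-cell 27 lay nearer to AVE (0.875) than to its own group (0.848). AWA 20 (0.840 against 0.754), AWB 51 (0.843 against 0.740), PVD 62 (0.869 against 0.851) and all 3 DD libraries lay nearer to VD than to their own group. AVG 43 lay nearer to DD (0.848 against 0.842). Of the AVE and VD markers, only 1 of 4 and 1 of 5 exceeded every other type. Pan-neuronal markers summed to 7840 to 16510 CPM in PVD against 28030 to 38230 in pan-neuronal libraries, and hypodermis markers to 1158 to 1460 against 220 to 589. Intestine markers summed to 591 to 1438 CPM against 333 to 628, and body-wall muscle markers to 7945 to 9043 against 8908 to 11820. The median log2 difference between PVD and pan-neuronal libraries was 1.16 over hypodermis markers (1 of 10 called), 2.10 over intestine markers (2 of 8) and 1.58 over muscle markers (0 of 10). Their part in the results below was not tested.

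**Figure D1:**
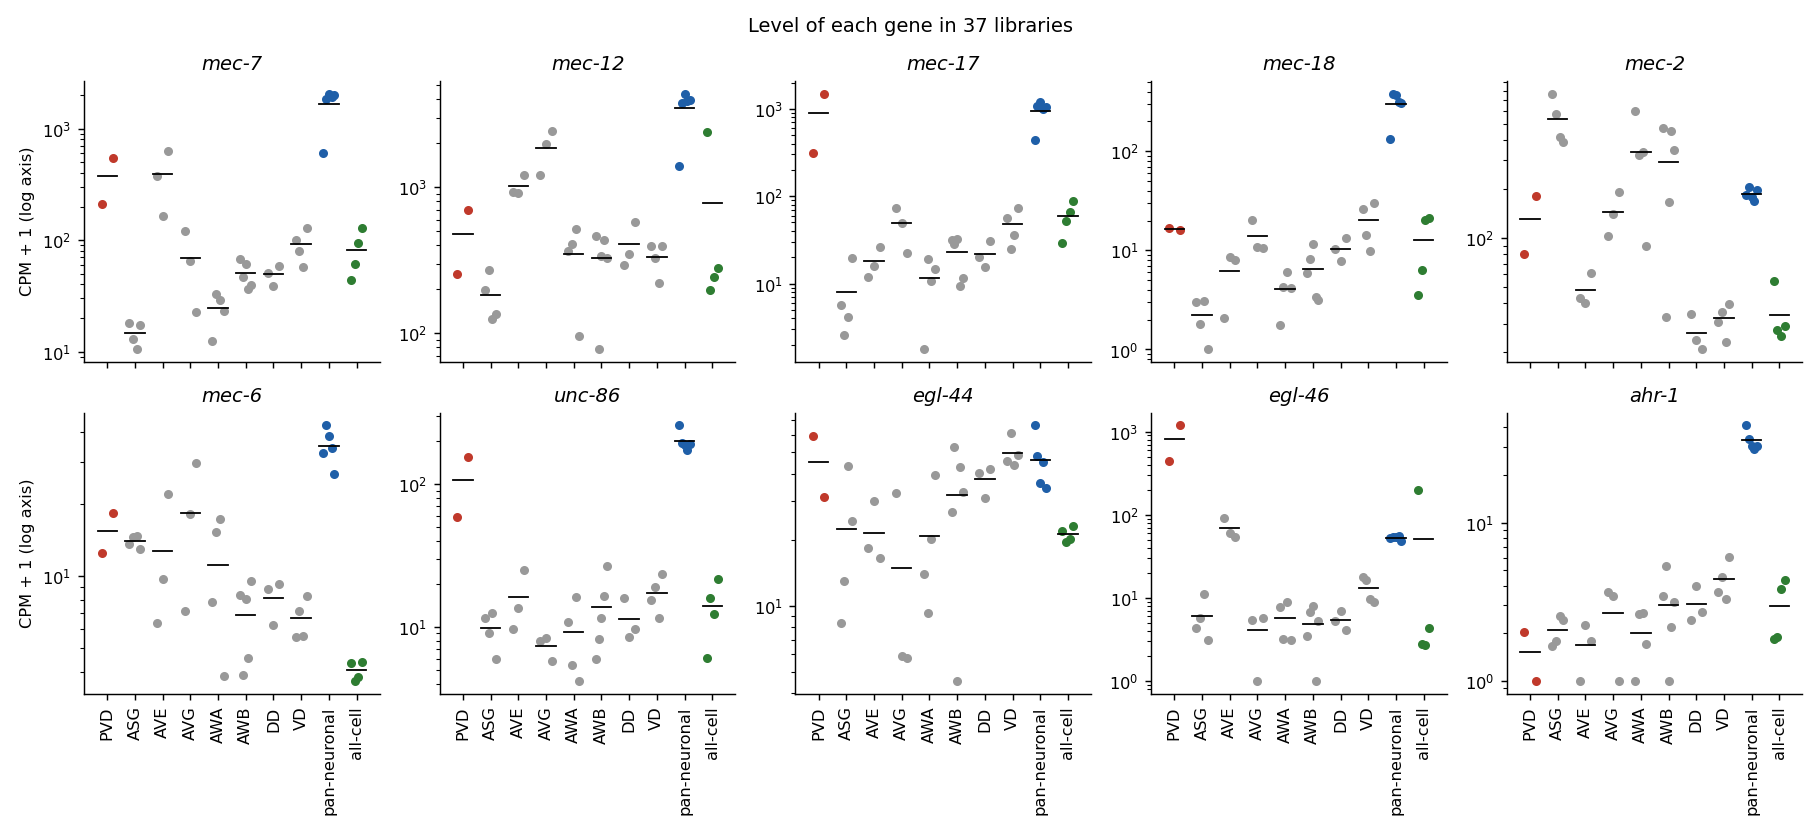
Level of each of the 10 genes in all 37 libraries. Each panel is a gene, the vertical log axis is CPM + 1, points are libraries, horizontal lines are group means, and red, blue, green and grey mark PVD, pan-neuronal, all-cell and the other 7 types. PVD stands above every other type for mec-17, unc-86 and egl-46, and for egl-46 it also stands above both references.

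Against pan-neuronal neurons, PVD carried far more egl-46 and far less mec-18, mec-12, mec-7 and ahr-1. Levels of mec-17, egl-44, mec-2, unc-86 and mec-6 did not pass the test. The series design sets each sorted type against this reference, which asks what a type carries beyond neurons at large. In the edgeR quasi-likelihood test, 1 member was higher and 4 were lower at an adjusted p under 0.05, so 5 of 10 were called. Of all 15181 genes tested, 22.6% were called in this comparison, 8.84% higher and 13.8% lower. The median log2 difference of the members was -1.10 and that of all genes tested -0.10. When library totals alone were used for scaling, the higher and lower calls over all genes went from 1342 and 2093 to 2048 and 1771, and 1 member was again higher and 4 lower. Leaving out any single pan-neuronal library, library 1 included, changed no call of a member here. Without PVD 62, 3 members and 965 of all genes were called. In bulk libraries, fewer cells of a type and less RNA per cell cannot be told apart. The labels do not tie libraries to separate cultures, so the p-values reflect spread between libraries that could be technical.

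Among the regulators, egl-46, a zinc finger factor that works with EGL-44, was the only member called higher in this comparison. It was at 439 and 1191 CPM in PVD libraries 62 and 63, and at 52.1, 52.6, 53.7, 53.9 and 47.1 CPM in the pan-neuronal libraries. Both PVD libraries were above every pan-neuronal library, and above all 26 libraries of other types, which ran from 0 to 90.6 CPM (median 5.28). Against pan-neuronal libraries the log2 difference was 3.97 ± 0.85 (SE; edgeR adjusted p = 0.00089). Against the mean of the other 7 types it was 6.80 ± 0.55 (SE; edgeR adjusted p = 9.37e-12). The order of group means put PVD first, with no overlap with AVE (67.5 ± 20.3 CPM, n = 3) below it. AVE and pan-neuronal libraries overlapped, and their log2 difference of 0.38 ± 0.79 (SE) did not pass the test (edgeR adjusted p = 0.743).

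In the all-cell group egl-46 depended on library 27, at 195.5 CPM, while the other all-cell libraries held 1.77, 1.69 and 3.37 CPM. AVE markers summed to between 20.9 and 315 CPM over the all-cell libraries (median 28.1), and their part in the egl-46 values was not tested. With library 27, pan-neuronal and all-cell libraries differed in egl-46 by a log2 of 0.06 ± 0.73 (SE; edgeR adjusted p = 0.95). Without it the difference was 4.43, pan-neuronal libraries being higher (edgeR adjusted p = 5.22e-07).

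The TEAD-family factor egl-44, the partner of egl-46, gave no such difference. It was at 58.4 and 30.4 CPM in PVD and at 65.5, 47.2, 35.2, 44 and 33.5 CPM in pan-neuronal libraries. These groups overlapped in part, with PVD 63 below and pan-neuronal 1 above all libraries of the other group, and a log2 difference of 0.00 (95% interval -1.17 to 1.17; edgeR adjusted p = 0.999). VD had the highest mean (48.9 ± 8.07 CPM) and AVG the lowest (13.8 ± 15.5 CPM), and each group overlapped its neighbour along the whole order. Hypodermis markers summed to 2298 to 2637 CPM in VD and 1598 to 3221 in AVG, and their part in the egl-44 levels was not tested.

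Transcripts of unc-86, the POU factor that acts with MEC-3, were at 58.4 and 154 CPM in PVD. Pan-neuronal libraries held 257, 194, 188, 172 and 191 CPM, all above PVD. The other types ran from 3.18 to 25.7 CPM (median 10.2), all 26 libraries below PVD. The 3 levels did not overlap, though the difference from pan-neuronal libraries did not pass the test (log2 -0.93 ± 0.52 SE; edgeR adjusted p = 0.204). Against the other 7 types PVD was higher by a log2 of 3.31 ± 0.36 (SE; edgeR adjusted p = 1.35e-08).

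Only 1 count of ahr-1 was found in PVD, in library 62, and none in library 63, which gives a pooled level of 0.704 CPM (exact Poisson 95% interval 0.0178 to 3.92). Pan-neuronal libraries held 40.2, 33.0, 29.6, 28.2 and 29.4 CPM from 593 counts. By summed counts PVD was 45.9-fold lower (95% interval 8.21 to 1816), and edgeR gave an adjusted p of 9.2e-05. Every pan-neuronal library was far above PVD. The gene was low in all other types too, between 0 and 5.07 CPM, so PVD did not stand apart from them (edgeR adjusted p = 0.801). Summed counts ran from 1 in PVD and 2 in AVE to 22 in DD and 61 in VD, so the levels of most types rest on few counts. VD was the highest of the types, at 2.63, 3.54, 2.30 and 5.07 CPM, and exceeded the mean of the other 7 by a log2 of 1.37 ± 0.40 (SE; edgeR adjusted p = 0.014).

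**Figure D2:**
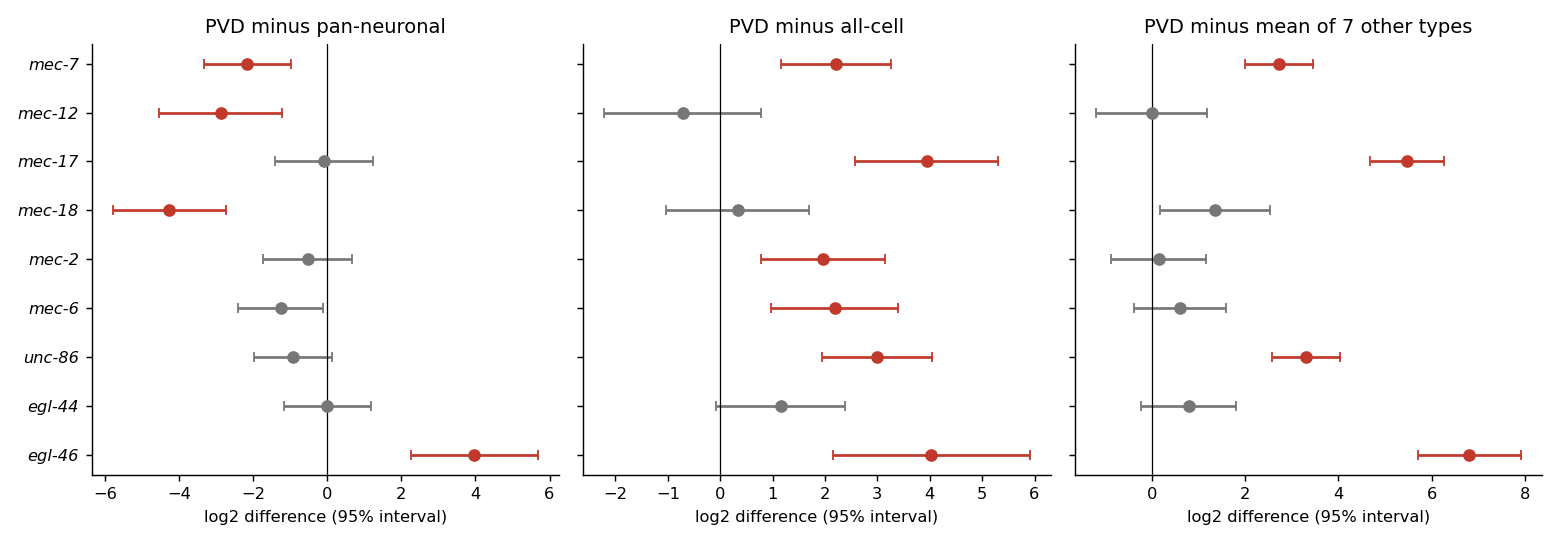
Log2 differences of PVD from pan-neuronal libraries (left), all-cell libraries (middle) and the mean of the other 7 types (right), for 9 genes. Points are edgeR estimates, bars are 95% intervals, and red marks an adjusted p under 0.05. Only egl-46 is red and above 0 in all 3 panels, while mec-7 is below 0 on the left and above it in the others; ahr-1 is left out, since PVD held 1 count.

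In the microtubule group, mec-17, the alpha-tubulin acetyltransferase gene, was the strongest in PVD. Its 2 PVD libraries gave 309.5 and 1484 CPM, and the pan-neuronal libraries 435, 1076, 1187, 1005 and 1055 CPM. PVD lay on both sides of the pan-neuronal range, so the log2 difference of -0.09 (95% interval -1.42 to 1.24; edgeR adjusted p = 0.944) leaves its direction undetermined. Libraries of the other types reached at most 72.9 CPM (lowest 0.760, median 18.8), and none overlapped PVD. Against their mean PVD was higher by a log2 of 5.47 ± 0.39 (SE; edgeR adjusted p = 5.37e-13). Its exons share 51 bases with arf-5, which was at 245 to 341 CPM in PVD and 328 to 485 CPM in pan-neuronal libraries.

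The beta-tubulin gene mec-7 was at 210.5 and 541 CPM in PVD, and at 601, 1831, 2049, 1902 and 1997 CPM in pan-neuronal libraries. Every pan-neuronal library was above both PVD libraries, with library 1 close to PVD 63. PVD was lower by a log2 of -2.16 ± 0.58 (SE; edgeR adjusted p = 0.00686), and without PVD 62 the difference was -1.69 and not called (edgeR adjusted p = 0.206). The closest type was AVE, at 378, 163 and 629 CPM, which overlapped PVD with a log2 difference of -0.06 (95% interval -1.20 to 1.08; edgeR adjusted p = 1). Of the 26 libraries of other types, 24 were below PVD and 1, AVE 42, was above it. Against the mean of the 7 types PVD was higher by a log2 of 2.72 ± 0.36 (SE; edgeR adjusted p = 6.16e-07).

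Its partner mec-12, an alpha-tubulin gene, was at 255 and 693 CPM in PVD. Pan-neuronal libraries held 1407, 3765, 4371, 3880 and 3984 CPM, without overlap. PVD was lower by a log2 of -2.88 ± 0.82 (SE; edgeR adjusted p = 0.0102), and without PVD 62 the difference was -2.39 and not called (edgeR adjusted p = 0.217). Unlike mec-7 and mec-17, it did not differ between PVD and the mean of the other 7 types (log2 0.00, 95% interval -1.19 to 1.19; edgeR adjusted p = 1). AVG had the most among the types, at 1204, 1972 and 2413 CPM, and exceeded the others by a log2 of 2.26 ± 0.42 (SE; edgeR adjusted p = 0.000193). Reads of mec-7 and mec-12 are uncertain to the extent that counting could split them among near-identical tubulin genes.

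Transcripts of mec-18, a gene of the touch programme that encodes a protein resembling acyl-CoA synthetases, were scarce in PVD. It was at 15.6 and 15.2 CPM there, from 15 and 7 counts, and at 132, 379, 368, 310 and 307 CPM in pan-neuronal libraries. The groups were widely separated, with a log2 difference of -4.27 ± 0.75 (SE; edgeR adjusted p = 0.000102). PVD libraries were above 23 of the 26 libraries of other types and below 3, but the difference from the mean of the types did not pass (log2 1.36 ± 0.58 SE; edgeR adjusted p = 0.227). C52B9.10, which shares 10.7% of the mec-18 exon bases, was at 1.04 to 2.17 CPM in PVD and 32.3 to 97.0 CPM in pan-neuronal libraries, and its part in the difference was not tested.

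The proportion of mec-17 to mec-18 within a library was highest in PVD. Per kilobase of exon, mec-17 exceeded mec-18 by 33.8 and 166.6 times in PVD libraries 62 and 63. The same ratio was 4.85 to 5.87 in pan-neuronal libraries and at most 19.4 in any other library, and it was undefined in ASG 16, where mec-18 had no count. Both PVD ratios were the highest of all, on 15 and 7 counts of mec-18. The ratio of mec-17 to mec-7 was 1.89 and 3.52 in PVD, 0.678 to 0.931 in pan-neuronal libraries and 0.0367 to 0.119 in AVE. AVE and PVD, close in mec-7 level, thus lay at opposite ends of the group medians for this ratio. The ratio of mec-7 to mec-12 was 0.850 and 0.805 in PVD and 0.440 to 0.517 in pan-neuronal libraries. The ratio of egl-46 to egl-44 was 11.7 and 60.9 in PVD, 1.24 to 2.37 in pan-neuronal libraries and 3.18 to 8.17 in AVE. All-cell 27, at 14.6, exceeded PVD 62. These ratios are descriptions, with no test.

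**Figure D3:**
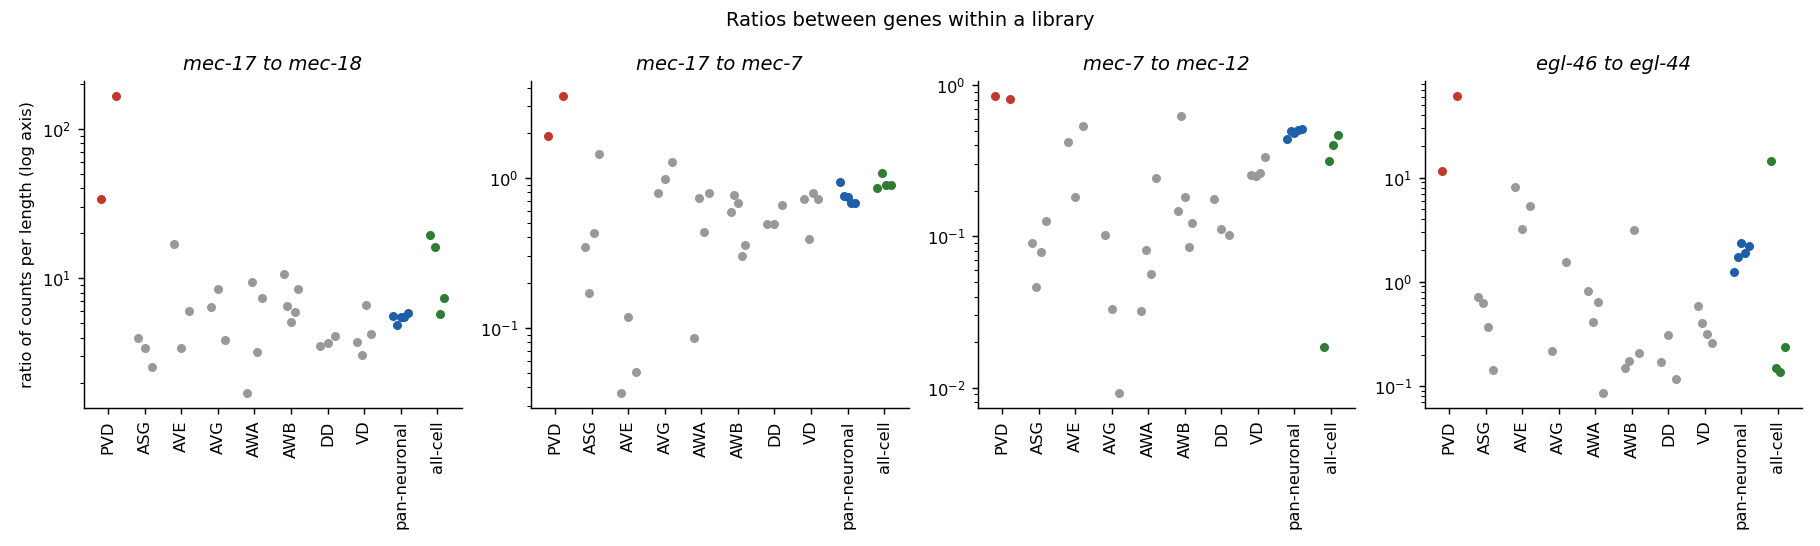
Ratios between members within each library, per kilobase of exon. The vertical log axes are ratios of counts per length, points are libraries, and red, blue, green and grey mark PVD, pan-neuronal, all-cell and the other 7 types; ratios of 0 or without a count below are not drawn. The 2 PVD libraries sit highest for mec-17 to mec-18, and between 1.89 and 3.52 for mec-17 to mec-7.

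Neither channel partner passed the test against pan-neuronal libraries. The stomatin-like gene mec-2, whose protein binds the touch channel, was at 79.2 and 180.3 CPM in PVD and at 183.5, 205.5, 178.5, 168 and 196 CPM in pan-neuronal libraries. PVD 63 lay inside the pan-neuronal range and PVD 62 below it (log2 -0.53 ± 0.59 SE; edgeR adjusted p = 0.556). The paraoxonase-like gene mec-6, whose protein helps the channel reach the membrane, was at 11.5 and 17.4 CPM in PVD. Pan-neuronal libraries held 31.8, 41.6, 37.4, 33.4 and 25.6 CPM. All of these were above PVD, but the log2 difference of -1.26 ± 0.56 (SE) did not pass the test (edgeR adjusted p = 0.105).

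Against the all-cell sort, 6 of 10 members were higher in PVD and 0 were lower, where 18.3% of all genes tested were called, 10.2% higher and 8.08% lower. The members' median log2 difference was 2.07 and that of all genes -0.14. The 6 were egl-46 (4.03), mec-17 (3.94), unc-86 (2.99), mec-7 (2.21), mec-6 (2.18) and mec-2 (1.96). The remaining 4 were egl-44 (1.16), mec-18 (0.33), mec-12 (-0.71) and ahr-1, with edgeR adjusted p of 0.191, 0.772, 0.542 and 0.364. All-cell 27 held 2384 CPM of mec-12 and the other all-cell libraries 198, 240.0 and 278.5 CPM; without library 27 the mec-12 difference was 0.98 (edgeR adjusted p = 0.217) and that of egl-46 was 8.39 (edgeR adjusted p = 4e-10). Without PVD 63, only unc-86 was called. The call of mec-2 was also lost without all-cell 29 (edgeR adjusted p = 0.0528), and those of mec-6 and egl-46 when only the compared groups were fitted (edgeR adjusted p = 0.0559 and 0.108).

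Between the references, 9 of 10 members were higher in pan-neuronal than in all-cell libraries, where 59% of all genes tested were called, with 32.2% of all genes tested higher and 26.9% lower. Scaling by library totals alone turned the split of all genes from 4881 higher and 4077 lower to 4054 and 5509. The log2 differences ran from 1.15 for egl-44 (edgeR adjusted p = 0.0382) to 4.6 for mec-18 (edgeR adjusted p = 5.96e-08), and egl-46 was the exception. The call of egl-44 was lost without pan-neuronal 1 (edgeR adjusted p = 0.0931), and also without pan-neuronal 7 or any single all-cell library (edgeR adjusted p = 0.0566 to 0.0768). It was lost as well under library totals alone (log2 0.68, edgeR adjusted p = 0.265). With DESeq2 size factors in edgeR it was narrowly lost (log2 1.11, edgeR adjusted p = 0.0505).

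Against the mean of the other 7 types, 4 of 10 members were higher in PVD and 0 were lower, where 4.43% of all genes tested were called higher and 0.817% lower (5.25% in either direction). The members' median log2 difference was 1.08, that of all genes -0.14. These 4 were egl-46, mec-17, unc-86 and mec-7, and the same count was called when AWA 20 and AWB 51 were both left out, a setting chosen after seeing the data. Set against each type singly, PVD carried more egl-46, mec-17 and unc-86 than all 7. It carried more mec-7 than 6, the exception being AVE. It carried more mec-18 than ASG (log2 3.52) and AWA (2.26). For mec-2, PVD was above DD (2.35) and VD (2.04) and below ASG (-2.06). These comparisons share the PVD libraries. The shares of all genes tested that were called higher in PVD were 7.61% against ASG, 3.84% against AVE, 3.36% against AVG, 4.73% against AWA, 4.35% against AWB, 3.32% against DD and 4.36% against VD, and 8.79% were called lower against ASG.

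**Figure D4:**
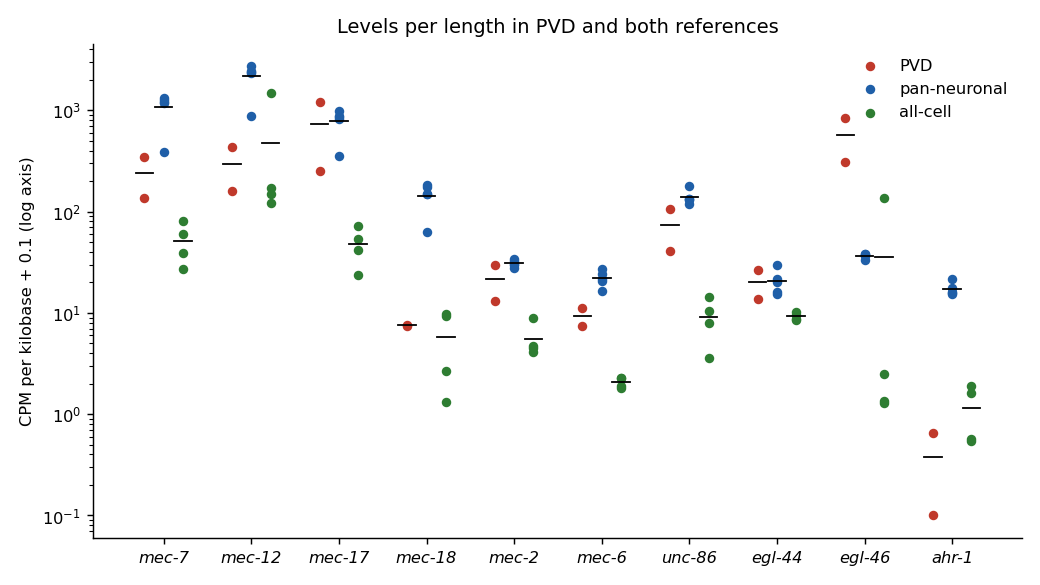
Levels of the 10 genes per kilobase of exon in PVD (red), pan-neuronal (blue) and all-cell (green) libraries. The vertical log axis is CPM per kilobase + 0.1, points are libraries and lines are means. In PVD the highest means are mec-17 (736) and egl-46 (572), and in pan-neuronal libraries mec-12 (2160) and mec-7 (1072).

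Scaling by length allows genes to be compared with each other. On this scale the programme was ordered differently in PVD and in pan-neuronal libraries, which mix neuron types. In PVD, mec-17 led with a mean of 736 CPM per kilobase and egl-46 came next with 572. Both tubulin genes followed, mec-12 at 294 and mec-7 at 240.2. Then came unc-86 (73.4), mec-2 (21.3), egl-44 (20.1), mec-6 (9.29), mec-18 (7.41) and ahr-1 (0.278). In pan-neuronal libraries the order began with mec-12 at 2160, mec-7 at 1072 and mec-17 at 781 CPM per kilobase. There mec-18 (144) stood above egl-46 (36.5), the reverse of PVD. The place of mec-17 at the head of the PVD means rests on PVD 63, since in PVD 62 egl-46 was higher per kilobase (308 against 254).

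Outside PVD, the members were mostly lower than in pan-neuronal libraries. Over the 7 other types and 10 genes, 57 of 70 comparisons were lower and 1 was higher. Of all genes tested, the share called lower was 20.8% in ASG, 20.5% in AVE, 19.7% in AVG, 19.8% in AWA, 24.1% in AWB, 20.8% in DD and 28.5% in VD. Each of mec-7, mec-17, mec-18, unc-86 and ahr-1 was lower in all 7 types. The others were lower in 6 (mec-6, mec-12 and egl-46), 3 (mec-2) and 1 (egl-44). The egl-44 call, in AVG, was lost under library totals alone (edgeR adjusted p = 0.101) and without the low-count filter (edgeR adjusted p = 0.0695). The mec-18 differences ran from a log2 of -7.79 to -3.96, and those of mec-17 from -7.10 to -4.28. All 7 comparisons share the pan-neuronal libraries.

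The 1 higher value was mec-2 in ASG, at 765, 579, 416 and 389 CPM, all above the pan-neuronal range (log2 1.53 ± 0.45 SE; edgeR adjusted p = 0.00699), where 16.8% of all genes tested were higher. In AWA and AWB, mec-2 did not pass the test against pan-neuronal libraries (log2 0.85 and 0.66; edgeR adjusted p = 0.135 and 0.214). In another comparison, against the mean of the other 7 types, it was higher in ASG (2.50), AWA (1.73) and AWB (1.51). It was lower in AVE (-1.50), DD (-2.54) and VD (-2.19). AWA 20 and AWB 51, which lay nearer to VD over all genes, held 88.8 and 31.7 CPM. The other AWA libraries were at 601, 322 and 337 CPM, and the other AWB libraries at 475, 166, 450.4 and 347 CPM. In these contrasts with the other types, the share of all genes called in either direction was 29.7% in ASG, 17.7% in AWA, 17.4% in AWB, 13.7% in AVE, 11.5% in AVG, 5.5% in DD and 20.7% in VD.

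In the same contrasts AVE was higher in mec-7 (log2 2.79) and egl-46 (2.70), and VD was higher in mec-18 (1.71). VD held 25.2, 13.3, 8.89 and 29.1 CPM of mec-18, which overlapped PVD. Marker genes of touch receptor neurons outside the members (mec-4, mtd-1, mec-14 and mec-1) summed to 47.6 to 115.5 CPM in VD, with none at 0 over the group, and their part in the VD value was not tested. ASG was lower in mec-7 (-2.73), mec-18 (-2.67), mec-17 (-2.54) and mec-12 (-1.59). AWA was lower in mec-7 (-1.83) and mec-17 (-1.80).

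The other genes of the touch programme were followed with a list of 18, of which 17 were tested. Against pan-neuronal libraries 2 were higher and 7 lower, beside 8.84% and 13.8% of all genes tested, with a median log2 difference of -0.87. The 2 higher were mec-3, the LIM homeodomain partner of UNC-86, and mec-10, a DEG/ENaC channel subunit; both are also on the PVD marker list. PVD held 284 and 630.0 CPM of mec-3, against 37.7 to 56.6 CPM in pan-neuronal libraries (log2 3.25 ± 0.54 SE; edgeR adjusted p = 4.73e-05). It held 243 and 249.8 CPM of mec-10, against 25.8 to 51.5 CPM (log2 2.54 ± 0.50 SE; edgeR adjusted p = 0.000402). Both were far above the pan-neuronal range in both PVD libraries.

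The channel gene mec-4, which encodes the pore subunit of touch receptor neurons, went the other way. It was at 5.21 and 4.35 CPM in PVD, from 5 and 2 counts, and at 52.6 to 83.7 CPM in pan-neuronal libraries (log2 -3.84 ± 0.76 SE; edgeR adjusted p = 0.000422). The 4 touch receptor markers summed to 45.6 and 58.4 CPM in PVD and 225 to 482.5 in pan-neuronal libraries; mec-14 had no count in PVD 63. The remaining lower genes were mtd-1 (-3.09), ptl-1, a tau-like gene (-1.90), mec-1, a gene of the extracellular matrix (-2.53), and zag-1, a zinc finger homeodomain factor (-3.56). With 3 counts in PVD, mec-14 was 9.52-fold lower (95% interval 3.23 to 46.4). The homeodomain gene vab-15 had no count in PVD and was 9.43-fold lower with PVD set at a floor of 3 counts over the group. By summed counts the lower 95% limit of its fold was 7.56.

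Against the other types, 8 of the 17 were higher and 0 lower, beside 4.43% and 0.817% of all genes tested, with a median log2 difference of 1.54. The highest were mec-3 (7.62), mec-10 (6.82) and mec-19 (5.49), whose product regulates the touch channel. Lesser differences were found for mec-9 (2.81), mtd-1 (2.12), unc-24 (1.92), mec-8 (1.87) and alr-1 (1.60). The lowest was vab-15, with no count in PVD. PVD held 12.5 and 47.8 CPM of mec-19 and the other types 0 to 3.54 CPM, without overlap.

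Relatives of the members, 29 genes tested out of 32 listed, were followed in the same way. Against pan-neuronal libraries 3 were higher and 5 lower, with a median of -0.31. These counts are near the shares of all genes tested (8.84% higher and 13.8% lower) and are given as single genes, not as a result about the list. The higher ones were the alpha-tubulin gene tba-8 (4.93), the bHLH-PAS gene cky-1 (2.96) and the POU gene ceh-18 (1.20). For tba-8, PVD 62 held 27 counts and PVD 63 held 1. For cky-1, PVD 62 held 9 counts and PVD 63 held 1. The lower ones were the stomatin-like genes sto-6 (-4.29) and sto-2 (-1.74), the POU gene ceh-6 (-3.34), the alpha-tubulin gene tba-5 (-2.91) and the hypoxia factor hif-1 (-2.57). Against the other types, tba-6 (3.46), tba-9 (3.24), sto-5 (2.59) and ceh-18 (2.24) were higher and 0 were lower. In that comparison 4.43% of all genes tested were called higher and 0.817% lower. The lowest value in the list was that of tba-5 (-2.41, edgeR adjusted p = 0.0585). The lists differ in size, and the difference between them was not tested.

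**Figure D5:**
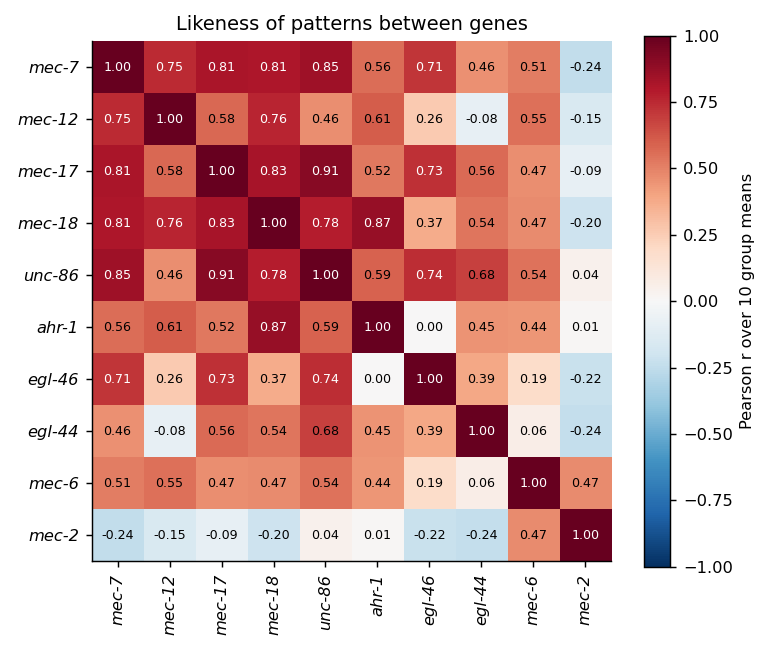
Pearson r between the patterns of the 10 genes over 10 group means of log2(CPM + 1). Red is positive and blue is negative, and each cell prints its r. The highest value off the diagonal is mec-17 with unc-86 (0.913), and mec-2 stands apart from the rest (-0.245 to 0.474).

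Over the 10 group means of log2(CPM + 1), mec-17 and unc-86 had the most similar patterns (Pearson r 0.913). High values also joined mec-18 with ahr-1 (0.872), mec-7 with unc-86 (0.849), mec-17 with mec-18 (0.828), mec-7 with mec-17 (0.814) and mec-7 with mec-18 (0.812). Group means of ahr-1 were 32.1 CPM in pan-neuronal libraries and only 0.521 to 3.39 CPM in the other groups, most of them on few counts. Its r with mec-18 was 0.812 with a pseudocount of 0.1 and 0.936 with 5. The tubulin genes mec-7 and mec-12 came to 0.748. The partners egl-44 and egl-46 gave 0.390. The value for egl-46 with ahr-1 was 0.00. The value for mec-2 with any other member stayed between -0.245 and 0.474. The all-cell mean of egl-46 rests largely on all-cell 27 (195.5 CPM, others 1.69 to 3.37), and so does that of mec-12 (2384 CPM, others 198 to 278.5). No r was computed without that library, here or in the search below. The groups share the dissociation, the kit and the scaling, and these values are descriptions.

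Among 10289 tested genes with a group mean of at least 20 CPM, the gene most like each member was named. Over only 10 group means, this search gave every member a gene with an r of 0.932 or above. A high r alone therefore does not set a pair apart. For mec-18 the closest gene was mtd-1, also of the touch programme (r = 0.966), then unc-4 (0.959) and Y59C2A.1 (0.955). For egl-46 it was C44H4.8 (0.966), highest in PVD at 237 CPM, then Y50E8A.12 (0.941) and the DEG/ENaC gene del-3 (0.931), which was also highest in PVD. For mec-17 it was gab-1 (0.969), then K03H6.5 (0.961) and lgc-37 (0.946), both highest in PVD. For unc-86 it was F59F3.6 (0.973), then glb-30 (0.972) and Y116F11A.6 (0.966). For mec-7 it was ZK721.3 (0.971), then ZK721.4 (0.951) and F58H1.5 (0.951), and for mec-12 acc-4 (0.968), then F32D1.3 (0.934) and sol-2 (0.932).

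For mec-2 the closest genes were nekl-4 (0.970), kcnl-2 (0.957) and daf-1 (0.948), each highest in ASG or AWB. For mec-6 they were the potassium channel gene slo-1 (0.967), Y62E10A.20 (0.936) and H06I04.14 (0.935). For ahr-1 they were C05D12.1 (0.978), C14A11.11 (0.976) and insc-1 (0.975), and for egl-44 ndnf-1 (0.932), gar-3 (0.930) and mab-21 (0.925), all highest in pan-neuronal libraries.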

How the data were processed

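RNA from 37 sorted libraries was measured. The deposited values are whole-number counts for each gene, not normalized by the authors. The submitters' processing notes name STAR, SAMtools and featureCounts; the sources used here give no version, strand setting or build. Genes were tested in 1 edgeR 4.0.16 quasi-likelihood fit of all 37 libraries (R 4.3.3, TMM factors, filterByExpr by group), which kept 15181 genes. Calls needed a Benjamini-Hochberg adjusted p under 0.05 over all genes tested. SE is the size of the log2 difference divided by the square root of the F statistic. Chromosomes came from the WBcel235 annotation. Intervals on summed counts and floors (3 counts) cover counting error only. Libraries of a group differed by 2.22 to 85.9 in chi-square per degree of freedom (54 pairs), so none were merged for the tests. Counts were summed over a group for the ahr-1 level and for the folds of ahr-1, mec-14 and vab-15, whose limits leave out this spread. All 10 members, list genes called, the extremes of each list and the 3 genes most like each member are named. Members and lists were chosen with earlier results of these data known. Alternatives were DESeq2 1.42.0 size factors and its Wald test, library totals alone, no filter, the compared groups alone, other pseudocounts (0.1 and 5), and each library left out. No sequences are shown.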

Additional observations from a re-analysis of the deposited data

Results flagged for a closer look

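Of 60 sets of values (a gene in a group of 4 or 5 libraries), 8 held a library far from the others of its group by a gap test that chance meets in about 1 in 20 sets. All-cell 27 was high in 3 of them. It held 53.5 CPM of mec-2 (others 24.2 to 27.9), 2384 CPM of mec-12 (others 198 to 278.5) and 195.5 CPM of egl-46 (others 1.69 to 3.37).

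Pan-neuronal 1 was flagged for 4 genes. It was low in mec-7 at 601 CPM (others 1831 to 2049), in mec-12 at 1407 CPM (others 3765 to 4371) and in mec-17 at 435 CPM (others 1005 to 1187). It was high in unc-86 at 257 CPM (others 172 to 194).

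Pan-neuronal 12 was low in egl-46, at 47.1 CPM, where the others lay between 52.1 and 53.9 CPM, a narrow range.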

How the results depend on the processing

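No paired analysis was possible because replicate numbers are not shared between groups. Fitting the compared groups alone called 5562 genes between PVD and pan-neuronal libraries (3435 in the fit of all groups) and 1332 between PVD and all-cell libraries (2780). Signs of differences near 0 turned: mec-17 between PVD and pan-neuronal libraries was 0.15 under library totals and 0.017 without the filter. Between PVD and the other types, mec-12 was -0.40 against all 9 other groups and -0.11 without AWA 20 and AWB 51 (both settings chosen after seeing the data), and -0.013 with the compared groups alone. Between the references, egl-46 was -0.26 under library totals, -0.046 without the filter and -0.044 with the compared groups alone. Between PVD and AVE, mec-7 was 0.049 under DESeq2 size factors, 0.037 under library totals and 0.049 in the DESeq2 Wald test. The cause was not tested.

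Leaving out 1 library at a time gave 965 to 3146 genes and 3 to 5 members called between PVD and pan-neuronal libraries (lowest without PVD 62). It gave 836 to 3534 genes and 1 to 6 members between PVD and all-cell libraries (lowest without PVD 63). Against the other types it gave 363 to 915 genes (lowest without PVD 63) and 4 to 4 members, and between the references 8109 to 9065 genes and 8 to 9 members. Log2 differences that changed sign ran from -1.79 to 0.58 for mec-17 and -0.65 to 0.18 for egl-44 (PVD and pan-neuronal), -1.58 to 0.98 for mec-12 (PVD and all-cell), -0.57 to 0.72 for mec-2 and -0.91 to 0.63 for mec-12 (PVD and other types), and -0.38 to 4.43 for egl-46 (references). With 1 PVD library left, that library was assumed to vary like the other groups.

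Library totals alone shifted the log2 differences of single genes. The median shift over genes was 0.36 (PVD and pan-neuronal), -0.11 (PVD and all-cell), 0.18 (PVD and other types) and -0.47 (references). With the compared groups alone, mec-6 was called lower in PVD than in pan-neuronal libraries (-1.17; edgeR adjusted p = 0.0166), and the calls against all-cell libraries of mec-6 (edgeR adjusted p = 0.0559) and egl-46 (edgeR adjusted p = 0.108) were lost. DESeq2 gave neither a p nor an adjusted p for egl-46 in any comparison (log2 4.01 between PVD and pan-neuronal libraries). Its Wald test called 0 members higher and 4 lower in PVD than in pan-neuronal libraries. It called 5 members against all-cell libraries and 3 against the other types. Precision for mec-18 and ahr-1 in PVD is limited by 22 counts and 1 count.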
